A study of Homo sapiens with 9 samples.

Results

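MALAT1 and NEAT1 are neighbouring long non-coding RNA genes on chromosome 11 whose transcripts stay in the nucleus. SF3B1 binding sites in them were chosen by position, as sites whose centre lay inside the RefSeq span of either gene on its strand. Of 96852 binding sites in the list, 80 met this rule, 60 in MALAT1 and 20 in NEAT1. The pair was picked because MALAT1 has more sites than any other gene outside the protein-coding genes. The site numbers are therefore a description of the choice, and no test is attached to them.

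SF3B1 is a subunit of the U2 small nuclear ribonucleoprotein, the part of the spliceosome that recognises the branch point upstream of a 3′ splice site. MALAT1 RNA gathers in nuclear speckles, which hold splicing factors, and is mainly an unspliced transcript. Its 3′ end is not made by ordinary polyadenylation: RNase P cuts in front of a tRNA-like element, which is released as the small RNA mascRNA. NEAT1 RNA is the scaffold of paraspeckles, nuclear bodies built on its long isoform. A short polyadenylated isoform shares the 5′ end of the long one, and both are made without splicing.

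The sites come from individual-nucleotide resolution crosslinking and immunoprecipitation (iCLIP) in K562 cells, a human leukaemia line in long-standing laboratory use. Cells were irradiated at 254 nm with 400 mJ/cm2, which crosslinks protein to the RNA it touches, and SF3B1 was then precipitated with a monoclonal antibody. The labels attach the list to 3 libraries of SF3B1 from cells with the genotype SF3B1 wt/wt. The series also holds 2 libraries of SF3B1 from SF3B1 K700E/wt cells and 4 libraries of U2AF2 from SF3B1 wt/wt cells of another supplier, which were not analysed here. All sites were 5 nt wide and all scores were 0, so the list gives positions with no read number, no depth and no value per library. Its header speaks of sites reproducible in all replicates of either condition, so no site can be tied to a genotype, and no spread between cultures can be given. RNA abundance was not measured either, and a site number is not corrected for it.

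MALAT1 spans 8779 nt, chr11:65497738-65506516 (GRCh38), and has 2 annotated starts in the RefSeq promoter table, at 65497738 and 65499045 on the plus strand. Both are shown because the distances below are counted from them. Bases before the start are in lower case, and the 50 bases from the start onward are in capitals. The first sequence covers chr11:65497718-65497787 and the second chr11:65499025-65499094 (RefSeq, GRCh38.p14).
MALAT1 start 1: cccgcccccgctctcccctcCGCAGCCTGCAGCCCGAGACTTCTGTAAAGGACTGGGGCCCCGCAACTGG
MALAT1 start 2: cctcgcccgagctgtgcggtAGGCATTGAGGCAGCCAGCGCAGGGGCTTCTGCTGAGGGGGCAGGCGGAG
Of the 50 bases from each start, G and C made up 66% at the first and 70% at the second. Neither stretch held a site. The sequence under the sites themselves was not used here.

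The sites of MALAT1 filled its middle and 3′ part. The first site had its centre 3138 nt after the first start and 1831 nt after the second. The last lay at 65505914, which is 202 nt before the last base upstream of the annotated MASCRNA gene (chr11:65506117-65506174). MASCRNA itself, the tRNA-like end product, held 0 sites. Cut into 10 equal segments, the span had no site in the first 3 segments. The following segments held 5, 7, 12, 10, 10, 13 and 3 sites in order towards the 3′ end. Between the first and the last site, a stretch of 5039 nt, there were 11.9 sites per kb. All 60 sites were on the plus strand. They also fall in the span of TALAM1, an antisense RNA gene annotated over MALAT1, and 0 sites lay on the minus strand there.

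That stretch had no long interruption, although many sites lay in clumps. The longest distance without a site was 446 nt, from 65503242 to 65503688, and the next longest was 315 nt. The longest distance was 8.85% of the stretch. Among 158 protein-coding genes with 50 to 70 sites the corresponding median was 19.8% (quartiles 15.7% and 26.7%), and 1 gene had a lower value. In spliced genes such a distance can cross introns, so genomic lengths are compared and not those of mature RNA. This measure was chosen after the sites had been seen, and the rank is given as a description.

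NEAT1 showed another arrangement. Its span is 22743 nt long, chr11:65422798-65445540, and 19 of its 20 sites lay in the first 10% of it. The first site was centred 127 nt after the start and the nineteenth at 1085 nt, with 8 sites in the first 500 nt and 10 in the next 500 nt. The remaining site was centred at 3684 nt, at 65426482, after 2599 nt without any site. From there to the end of the span, 19058 nt held 0 sites, including the gene of the microRNA MIR612 (chr11:65444458-65444557). The end of the short isoform is not in the gene table used, so the isolated site was not placed relative to it. All 20 sites were on the plus strand, although the tables used give no strand for NEAT1.

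**Figure D1:**
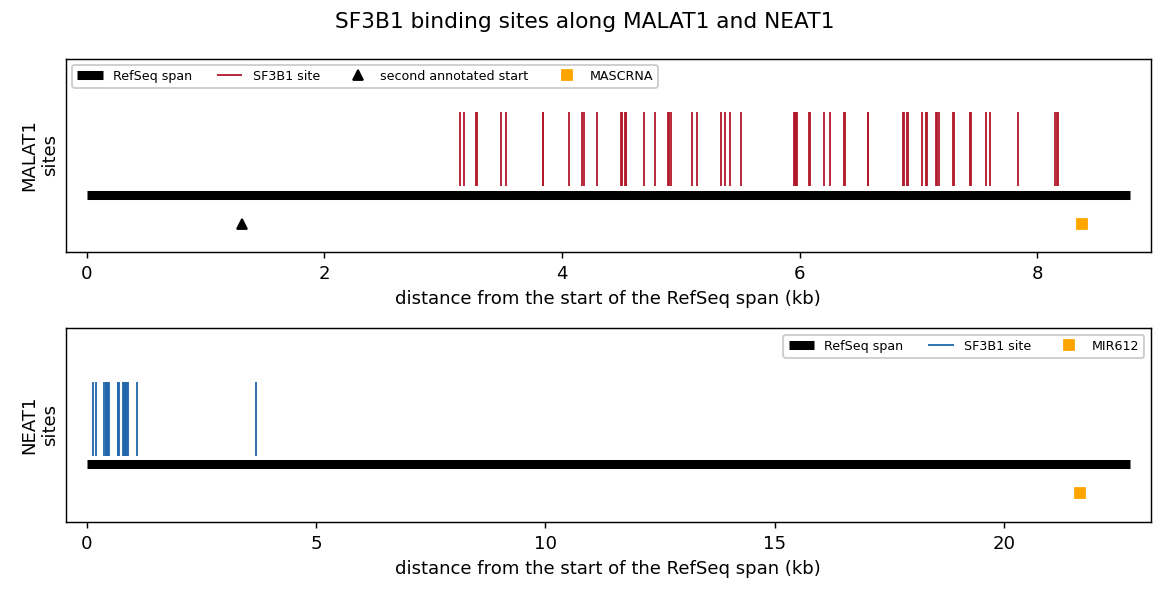
Positions of SF3B1 sites along MALAT1 (upper panel) and NEAT1 (lower panel), as distance in kb from the start of the RefSeq span. Each vertical line is 1 site, the black bar is the gene span, the triangle the second annotated start of MALAT1 and the squares MASCRNA and MIR612. The 60 MALAT1 sites begin 3138 nt after the start, whereas 19 of the 20 NEAT1 sites lie within 1085 nt of the start.

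The 5′ position of the NEAT1 sites was compared with genes of known strand. Among 1219 protein-coding genes with at least 20 sites, the median share of sites in the first 10% of the gene from the 5′ end was 0%, the ninetieth percentile 13.5% and the highest value 85.7%. NEAT1 had 95%, and 0 of these genes reached it. MALAT1 had 0% there, as did 836 of the 1219 genes. In the spliced genes the span includes introns, so the lengths compared are not those of mature RNA.

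The density of sites differed between the members. MALAT1 had 6.83 sites per kb of span, and 8.48 per kb when the 7072 nt from the second start to MASCRNA were taken as its length. None of the 7446 protein-coding genes with a site was denser than the first value; their median was 0.199 and their highest 5.73 sites per kb. Among those with at least 20 sites, the densest were TXNIP with 5.55, EIF4A2 with 5.54, HNRNPU with 5.19, HNRNPA1 with 5.19 and PIM1 with 5.12 sites per kb. The span of a spliced gene counts its introns, so this order is of sites per genomic length and not per length of mature RNA. By number of sites, MALAT1 was less extreme, since 167 protein-coding genes had more than 60. NEAT1 had 0.879 sites per kb, and 1039 protein-coding genes were denser. Counted in the densest 1000 nt, however, NEAT1 held 19 sites and MALAT1 17. The median over 1426 protein-coding genes with at least 20 sites was 8, with 11 genes above NEAT1 and 24 above MALAT1.

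**Figure D2:**
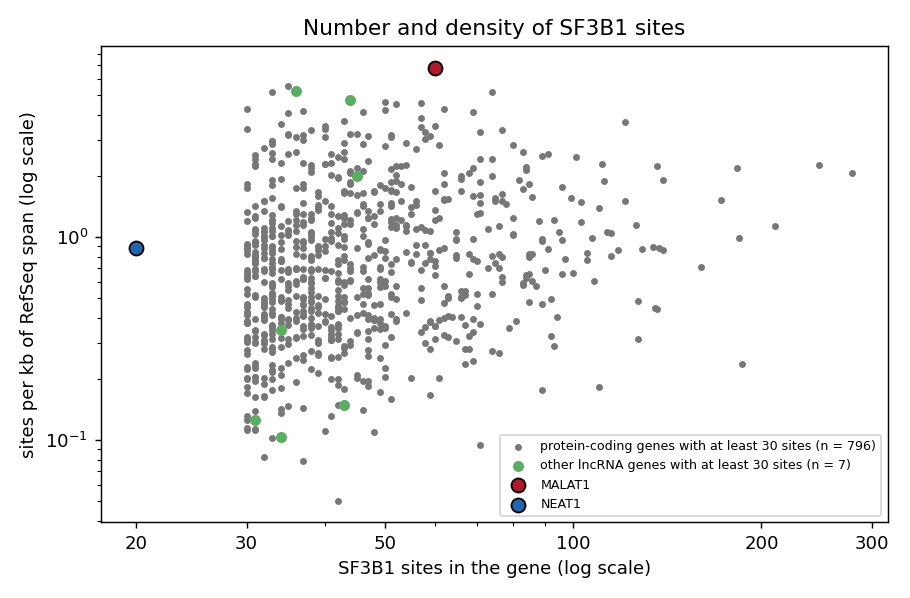
Sites per kb of RefSeq span against the number of sites in a gene, both on log scales. Genes with 30 sites or more are drawn, 796 protein-coding in grey and 7 other long non-coding RNA genes in green. Sites in more than 1 gene of the same kind were not counted, so long non-coding RNA genes that share their sites, such as ERVE-5, are not drawn. The large points are MALAT1 (60 sites, 6.83 per kb) and NEAT1 (20 sites, 0.879 per kb). MALAT1 lies above all other points.

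The question posed for these RNAs was whether sites are spaced as in spliced genes. Distances can be counted in 2 ways, between neighbours, where each distance enters once, or between all pairs of sites in a gene. Protein-coding genes served as the spliced genes, since no exons were given, and genes without introns could not be removed from them. They supplied 92977 sites and 85525 neighbour distances. In such genes sites often lie 25 to 45 nt apart and seldom 46 to 66 nt apart, and the pairs in these equally wide spans numbered 21190 and 5925, a ratio of 3.58. Those with at least 2 sites per kb had 1974 and 819 pairs, a lower ratio of 2.41.

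In MALAT1 the nearer span also held more pairs. Its sites formed 18 pairs 25 to 45 nt apart and 3 pairs 46 to 66 nt apart, a ratio of 6. The distances of the 3 wider pairs were 46, 47 and 55 nt, so 2 of them lay next to the boundary. In 5-nt bins the short pairs peaked at 30 to 34 nt with 8 pairs, and no pair lay between 60 and 69 nt. Among the 154 protein-coding genes with 50 to 70 sites and a pair in the wider span, the median ratio was 3 (quartiles 1.91 and 4.75), and 127 genes were below MALAT1. Pairs share sites, for example 5 of the 18 come from 1 cluster of 5 sites, so no test was made on them.

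The same comparison over neighbours gave no call. MALAT1 had 6 neighbour distances of 25 to 45 nt and 3 of 46 to 66 nt, that is 66.7% in the nearer span (95% exact Clopper-Pearson interval 29.9% to 92.5%). Protein-coding genes had 11983 of 14431, or 83.0%. The difference of -16.4 percentage points did not pass the threshold (two-sided Fisher's exact test, p = 0.185, adjusted over 6 tests 0.371). The direction was opposite to that of the pairs, and with all pairs the difference was 7.57 points. A site with a partner 5 to 12 nt away has a site that close as its neighbour, and 19 of the 59 neighbour distances of MALAT1 were of that kind. Only 4 of these were 5 nt, the distance at which 5-nt sites touch. With sites linked at 12 nt or less taken as 1 element, MALAT1 had 41 elements, with 8 distances in the nearer and 3 in the farther span (72.7%, against 82.5% in protein-coding genes, exact p = 0.42). The interval of the MALAT1 share includes the share in spliced genes, at a depth of 9 or 11 distances.

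Sites 5 to 12 nt apart, called abutting here although 5-nt sites touch only at 5 nt, were frequent in MALAT1. Of its 33 close neighbours, meaning neighbours at most 66 nt apart, 19 were 5 to 12 nt apart. This was 57.6% (exact interval 39.2% to 74.5%), against 42.8% of 34434 in protein-coding genes. The difference of 14.8 points did not pass (two-sided Fisher's exact test, p = 0.112, adjusted 0.336). The share at 25 to 45 nt among these close neighbours was 18.2% (7.0% to 35.5%) against 34.8%, with an unadjusted exact p = 0.0455 and an adjusted p of 0.273, so this difference failed the correction. It was not among the planned comparisons. Both shares are taken over the same 33 close neighbours, so a higher abutting share leaves less room for the other. Of 318 protein-coding genes with at least 20 close neighbours, 9 had a higher share of abutting sites than MALAT1 and 17 a lower share at 25 to 45 nt. Distances within a gene may depend on each other, and the exact tests treat them as independent.

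At longer range MALAT1 had fewer pairs in a nearer span than in a farther one. Its sites formed 7 pairs 60 to 99 nt apart and 37 pairs at least 100 and under 140 nt apart, a ratio of 5.29. Protein-coding genes had 6758 and 9314 pairs, a ratio of 1.38, and those with at least 2 sites per kb a ratio of 1.44. Of 156 protein-coding genes with 50 to 70 sites and a pair in the nearer span, 146 had a lower ratio than MALAT1 and 10 a higher one, with a median of 1.44. These spans were set after the distances had been seen. Neighbours at least 67 and under 140 nt apart made up 23.7% of the MALAT1 distances (14 of 59, exact interval 13.6% to 36.6%), against 7.66% in protein-coding genes and 13.1% in the denser ones. With the spans fixed from earlier results, pairs 140 to 180 nt apart against 60 to 100 nt apart, MALAT1 had 22 and 8 pairs, a ratio of 2.75, against 1.72 in protein-coding genes. In 111 of 156 genes with 50 to 70 sites this ratio was lower than in MALAT1. With both spans widened, to 130 to 190 nt against 60 to 120 nt, the difference from protein-coding genes turned to -2.68 percentage points.

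**Figure D3:**
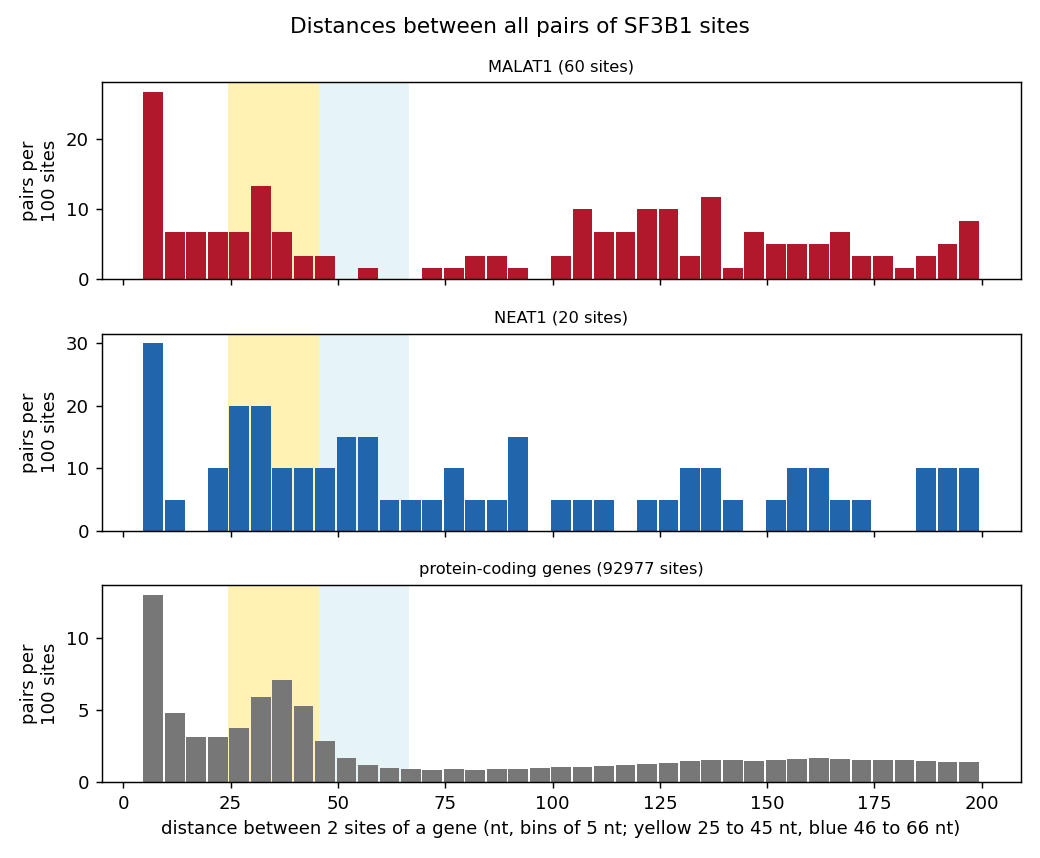
Pairs of sites per 100 sites by the distance between them, in bins of 5 nt, for MALAT1, NEAT1 and protein-coding genes. Yellow marks 25 to 45 nt and blue 46 to 66 nt, and the vertical scales differ. MALAT1 has 18 pairs in the yellow and 3 in the blue span, 7 pairs from 60 to 99 nt and 37 from 100 to under 140 nt.

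In NEAT1 the spacing could be read from few sites. Its neighbours included 5 distances of 25 to 45 nt and 0 of 46 to 66 nt, or 100% (exact interval 47.8% to 100%) against 83.0% in protein-coding genes (two-sided Fisher's exact test, p = 0.597, adjusted 0.788). No share can be higher, so with 5 distances the test could not have passed in this direction. With sites linked at 12 nt or less taken as 1 element, 5 of 6 distances lay in the nearer span, 83.3% against 82.5%, so that the difference shrank from 17.0 to 0.80 points. Among all close neighbours, the share at 25 to 45 nt was 3.66 points above that of protein-coding genes. Over all pairs NEAT1 had 13 and 8, a ratio of 1.62, which is below that of protein-coding genes and a difference of -16.2 points. Protein-coding genes with at least 2 sites per kb were nearer, with a ratio of 2.41. Abutting sites were 6 of 13 close neighbours, 46.2% (19.2% to 74.9%), against 42.8% (exact p = 0.788, adjusted 0.788). The median neighbour distance was 28 nt, and 2 of 1426 protein-coding genes with at least 20 sites had a shorter one. In MALAT1 it was 38 nt, with 43 genes shorter. The median over these genes was 146 nt. Their distances are genomic and can cross introns, and density was not matched, so these ranks also reflect how densely sites lie.

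**Figure D4:**
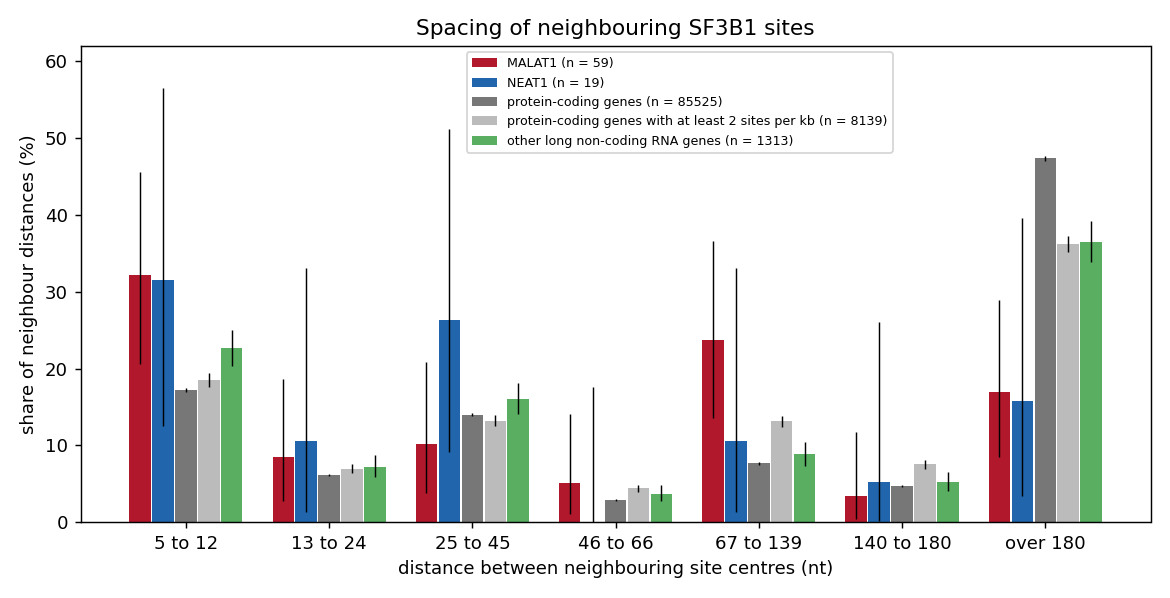
Share of neighbour distances in 7 distance classes for MALAT1 (59 distances), NEAT1 (19), protein-coding genes (85525), protein-coding genes of 2 or more sites per kb (8139) and other long non-coding RNA genes (1313). Error bars are 95% exact binomial intervals and cover counting error only. MALAT1 has 32.2% of its distances at 5 to 12 nt and 23.7% from 67 to under 140 nt, with 16.9% over 180 nt.

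Clusters were formed by joining sites whose nearest neighbour was no more than 60 nt away. MALAT1 had 27 such clusters with a mean of 2.22 sites. Single sites made up 6 of them, 22.2%, against 63.2% of 59083 clusters in protein-coding genes and 59.3% in those with at least 30 sites. This share falls where sites are dense, and density was not matched. A further 8 were 1 element of several adjacent sites, 29.6% against 9.24%. A paired footprint, defined as a cluster of exactly 2 elements whose mean positions lie 25 to 45 nt apart, made up 7 of the 27 clusters. That share was 25.9% (exact interval 11.1% to 46.3%), and in protein-coding genes it was 17.4%, inside this interval. The difference of 8.52 points fell to 2.09 with clusters linked at 80 nt. Among clusters with 2 or more elements the order was reversed, with 53.8% paired in MALAT1 and 63.2% in protein-coding genes. The 7 paired footprints of MALAT1 included its first cluster, and none lay between 65502281 and 65504609. They were at chr11:65500874-65500915, chr11:65501226-65501268, chr11:65502234-65502281, chr11:65504609-65504652, chr11:65504768-65504813, chr11:65504883-65504918 and chr11:65505306-65505344. Their elements were 37, 38, 32.2, 32.5, 37, 27 and 34 nt apart in that order. Upstream elements together had 10 sites, downstream elements 11.

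The 7 clusters of NEAT1 included 0 paired footprints (exact upper limit 41%). Instead, 2 clusters were long rows of elements. One, at chr11:65423162-65423287, had 6 sites in 4 elements over 126 nt, and the other, at chr11:65423582-65423699, had 7 sites in 5 elements over 118 nt. Successive short spacings in a row of this kind also give pairs 46 to 66 nt apart. In MALAT1, 1 of 27 clusters had 3 or more elements.

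The sites were also counted by the running number that the list shares between some sites close together. MALAT1 had 49 numbers for 60 sites and NEAT1 15 numbers for 20 sites. Merging sites that touch left 56 and 19.

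Genes whose neighbour spacing was most like that of MALAT1 were sought among 803 genes with at least 30 sites, by the sum of absolute differences over the 7 distance classes. HNRNPA3, which encodes a nuclear RNA-binding protein, was nearest at 18.5 percentage points, with 46 sites. VEGFA, which encodes a vascular growth factor, and MIR17HG, the host gene of a microRNA cluster, followed at 26.2 points each, with 57 and 36 sites. The median over these genes was 71.0 points, and the pooled protein-coding genes were 71.2 points away. The measure includes distances over 180 nt, which were 16.9% in MALAT1 and 47.4% in protein-coding genes. Such distances can cross introns and become fewer where sites are dense, and density was not matched. HNRNPA3, VEGFA and MIR17HG had 4.12, 3.50 and 5.22 sites per kb.

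Other long non-coding RNAs gave a mixed picture. At least 1 site was found in 37.1% of 20050 protein-coding genes and in 2.01% of 18303 long non-coding RNA genes. The latter were counted outside protein-coding genes and without sites in more than 1 long non-coding RNA gene. In a list of 18 known nuclear or abundant non-coding RNAs, 10 had a site and the median was 6.5. Most sites were in MIR17HG with 36, SNHG1 with 22 and GAS5 with 21, of which SNHG1 and GAS5 are spliced hosts of small nucleolar RNAs. NORAD and KCNQ1OT1, which like MALAT1 are mainly unspliced, both had 0 sites, as did OIP5-AS1 and 5 others. TUG1, which the gene table lists as protein-coding, had 6. After MALAT1, the genes with the most sites outside protein-coding genes were LINC01029 with 45, GS1-600G8.3 with 44, LINC02476 with 43 and LOC100420587 with 41. ERVE-5 and LOC124904681 shared the same 37. LOC100420587 is on chromosome 19 as they are. It has equal numbers of neighbour distances at 5 to 12, 25 to 45 and 46 to 66 nt. Its 41 sites may therefore include the same ones. GS1-600G8.3 had 4.74 sites per kb. SNHG1, with 5.63, was the densest of the 40 other long non-coding RNA genes with at least 10 sites not shared with another such gene.

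Sites were also counted in genes of proteins tied to these RNAs. Of 16 genes of paraspeckle proteins, which assemble on NEAT1, or of factors that process it, 15 had a site and the median was 43 sites, against 7 over protein-coding genes with a site and 0 over all of them. DAZAP1 had 80, SFPQ 69 and HNRNPK 57. NONO, which pairs with SFPQ in paraspeckles, had 34, PSPC1 had 6 and RBM14 had 0. All 16 genes of nuclear speckle proteins had a site, with a median of 34.5. SRSF11, a serine- and arginine-rich splicing factor, had 77, BCLAF1 66 and SRRM1 62, while SRRM2 and SON, which build the speckle core, had 59 and 43. In the list for RNase P and the processing of the MALAT1 3′ end, 8 of 13 genes had a site, with a median of 3. Over all protein-coding genes, 37.1% had a site. TRNT1, which adds CCA to mascRNA and tRNAs, had 25, ELAC2, the enzyme that trims its 3′ end, had 13, and POP1 and RPP30, subunits of RNase P, had 6 each. METTL16, which binds the triple helix at the MALAT1 3′ end, had 5. These genes were not matched on expression, and expression was not measured here.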

How the data were processed

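The deposited list holds merged 5-nt sites reproducible in all replicates of either condition, per the file headers. The score column, as deposited by the authors, was 0 throughout, and how scores were made is not stated. The submitters' processing notes name STAR 2.6.1b and 2.7.3a, UMI-tools 1.0.0, bedtools 2.27.1, FastQC 0.11.8 and the builds GRCh38.p10 and GRCh38.p12; the site caller and its filters are not given in the sources used here. Merging limits how close sites can lie.

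Positions were made 1-based and set at the centre. Spans came from RefSeq GRCh38.p14, strands from its promoter table (15843 of 20050 protein-coding genes; otherwise both strands). As listed, 96.7% of sites lay in a protein-coding gene, and 74.8% after a shift of 10000 nt. Sites in more than 1 protein-coding gene were left out of the comparison, but counted in gene lists. Sites in more than 1 long non-coding RNA gene were left out of the figures, ranks and shares for such genes. They were counted in the order by site number outside protein-coding genes. Fisher's exact tests were two-sided, at 0.05, with Benjamini-Hochberg adjustment. Only the exact test of the abutting share was tried on simulated data, with distances drawn independently of each other. The short-spacing tests, pair counts, clusters, ranks and likeness measure were not simulated. The members and lists were chosen with earlier results of these data known. Exons, sequence under sites and scores were not usable, so those plans were not run. Named genes are the members, the 3 highest of each list, the 5 highest non-coding genes, the 3 most like MALAT1, and others named after their values were seen; 1 gene under this rule is not reported here. Scripts ran in Python 3.11.15 with SciPy 1.17.1, pandas 2.3.3 and NumPy 2.4.6.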

Additional observations from a re-analysis of the deposited data

How the results depend on the processing

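Of 51 recalculations of 12 results, 44 kept their direction and their side of the threshold or stayed within the set limits. With all pairs in place of neighbours, the short-spacing difference from protein-coding genes turned from -16.4 to 7.57 percentage points in MALAT1 and from 17.0 to -16.2 in NEAT1. Both members together gave -4.47 points, which reverses NEAT1 because MALAT1 supplies more distances. The share at 25 to 45 nt among all close neighbours differed by -16.6 points in MALAT1 with an exact p = 0.0455, under the threshold only before adjustment. The p-values over the alternatives of that result ran from 0.0455 to 0.719. With 1 site per running number the abutting difference of NEAT1 turned from 3.36 to -12.1 points. The long-spacing difference of MALAT1 was 10.1 points and turned to -2.68 with the wider spans. Counted from the second start, the first MALAT1 site lay at 1831 nt in place of 3138 nt. Replicates could not be left out and no stricter score could be set, because the list has neither. No paired analysis was possible because replicates are pooled in 1 column of positions. A stretch without sites cannot be told from one whose RNA was too rare for a reproducible site.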

Other observations

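Sites were also counted in genes around the members on chromosome 11. Of 17 protein-coding genes in a list of neighbours, 9 had a site, 52.9%, and the median was 1. Over all protein-coding genes, 37.1% had a site and the median was 0. EHBP1L1 had the most with 13, PCNX3 had 10 and KAT5, a lysine acetyltransferase gene, had 9. Between NEAT1 and MALAT1 lies the transcribed pseudogene FAUP4, with 2 sites in 11724 nt, both on the plus strand. RELA, a subunit of NF-kappaB, had 3 sites and POLA2, a subunit of DNA polymerase alpha, had 0.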
